A study of Malus domestica with 18 samples.

Results

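Hsp70c is 1 of the 18 target genes measured by RT-qPCR in this study and 1 of its 3 Hsp70 genes. It was chosen by its values in these same samples, since it had the widest range over seed aging and the largest response to nitric oxide (NO), so its levels and differences are given below as a description without a test. In apple (Malus domestica) it corresponds to the gene model MDP0000416692 of the Genome Database for Rosaceae, and its closest Arabidopsis thaliana protein is a mitochondrial Hsp70. Its place in the genome is not given here, because the gene table used holds no entry under that name.

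Hsp70 proteins are chaperones that bind exposed hydrophobic stretches of unfolded proteins and release them in cycles driven by ATP. The mitochondrial members sit in the matrix, where they pull precursor proteins in through the inner membrane and hand them on to the Cpn60 chaperonin for folding, while ClpB proteins work with Hsp70 to take protein aggregates apart. In seeds, chaperones are stored during maturation and are needed again when a rehydrated embryo restarts respiration.

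Seeds were kept on moist sand at 33 °C for 7, 14 or 21 days, a treatment known as accelerated aging. The embryos were then isolated and either left untreated (control) or exposed for 3 h to vapors of acidified nitrite (14.5 mM sodium nitrite in 0.2 M HCl), which release NO, and both kinds were cultured for 48 h before the embryonic axes were taken. Each of the 6 groups had 3 biological replicates, giving 18 samples named Control or NO with the days of aging. There were no unaged seeds among the samples, so the control of each day had been aged as well, and the controls were not exposed to vapors without nitrite as far as the labels say. No marker of embryonic axes was among the genes, so the labelled tissue could not be checked. A bulk sample gives no view of single cells, and fewer cells that express a gene cannot be told apart from less RNA per cell.

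The measurement of Hsp70c rests on 1 pair of primers, shown here beside those of the other Hsp70 genes, Hsp70a and Hsp70b. The sequences run 5′ to 3′, and capitals mark the 5 bases at the 3′ end, from which the polymerase extends.
Hsp70c forward: caatgatgctcagagACAGG
Hsp70c reverse: accaccaagatcaaatACAGC
Hsp70a forward: ttgtcgggtcagggTCTAG
Hsp70a reverse: agcattgcacattgaaGAGCG
Hsp70b forward: atcaccaacgacaaGGGCA
Hsp70b reverse: ctttgcctccaccttCTTCT
The forward primer of Hsp70c has 20 bases and the reverse primer 21, of which 10 and 9 are G or C. On either strand the longest run that a Hsp70c primer shares with a primer of Hsp70a or Hsp70b is 5 bases for the forward and 6 for the reverse primer. This compares primers only. Whether the Hsp70c primers also amplify other Hsp70 transcripts was not checked, because no transcript sequences were at hand. The primer table lists 1 gene model for Hsp70c and 1 for Hsp70b but 5 for Hsp70a, so the values of Hsp70a may sum several genes.

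The raw reading of RT-qPCR is the quantification cycle (Cq), the cycle at which the product crosses a threshold, and a higher cycle means less template. The cycles of Hsp70c ran from 24.3 to 30.8, a span of 6.50 cycles over the 18 samples. Those of the reference genes ran from 22.5 to 23.4 for Sar1, which encodes a small GTP-binding protein of vesicle transport, and from 24.0 to 25.4 for Pdi, which encodes a protein disulfide isomerase. The earliest cycles of Hsp70c were thus close to those of Pdi, and the latest were several cycles behind both reference genes. The highest cycle of Hsp70c, in a control sample at 14 days, was also the highest of all 18 target genes.

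In Control 7d the cycles of Hsp70c were 25.1, 25.4 and 25.3, and in NO 7d they were 24.3, 24.5 and 24.3. In Control 14d they were 30.7, 30.8 and 30.4, against 27.1 in each of the 3 samples of NO 14d. Control 21d gave 28.7 in each sample, and NO 21d gave 30.0, 30.0 and 29.9. At every aging time the control and NO samples lay apart in raw cycles, with NO earlier at 7 and 14 days and later at 21 days. The mean cycle of Sar1 and Pdi moved with NO by -0.19 at 7 days, -0.10 at 14 days and -0.012 at 21 days, while that of Hsp70c moved by -0.89, -3.50 and 1.27 cycles. Over the 6 groups the mean of the reference genes spanned 0.916 cycles and that of Hsp70c 6.26 cycles.

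**Figure D1:**
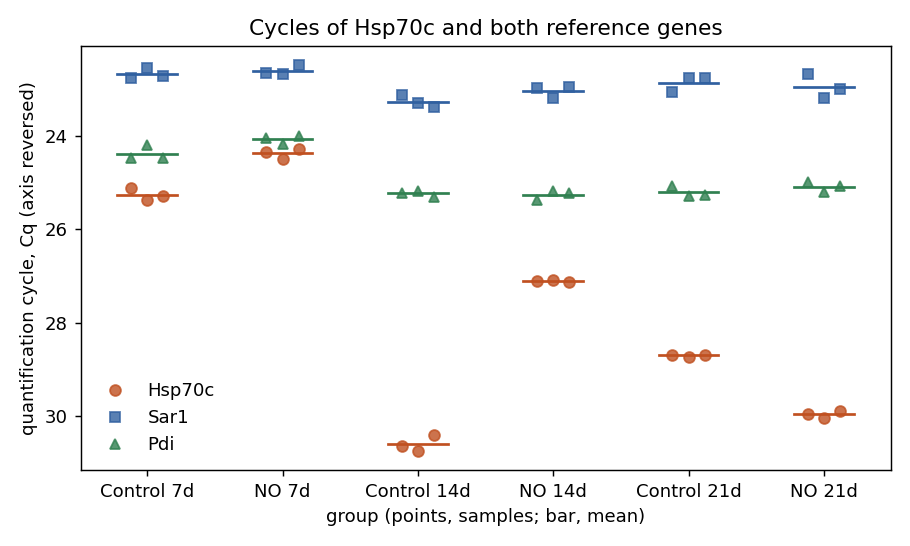
Quantification cycles of Hsp70c, Sar1 and Pdi in each of the 18 samples by group, on a reversed axis so that more template is higher; points are samples and bars are means (n = 3). The reference genes stay within 1.37 cycles each, while Hsp70c spans 6.50 cycles and is latest in Control 14d.

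To compare aging times, the level of Hsp70c was taken from its cycle minus the mean cycle of Sar1 and Pdi, with 1 doubling per cycle, and set to 1 at the geometric mean of Control 7d. In control axes the level of Hsp70c was 1.17, 0.832 and 1.03 after 7 days of aging. After 14 days it was 0.0370, 0.0358 and 0.0489, and after 21 days 0.133, 0.126 and 0.128. The 3 aging times did not overlap, and the lowest level stood at 14 days, not at the end of the course. From 7 to 14 days Hsp70c was lower by a log2 difference of -4.64, which is 24.9-fold, with a pooled SD of 0.25 on the log2 scale. From 14 to 21 days the level of the control axes was higher by 1.68 (log2), which is 3.21-fold, with a pooled SD of 0.18. At 21 days it was still 7.74-fold below Control 7d (log2 difference -2.95).

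A second scale for the control axes exists in the deposited values, in which the control of 7 days is about 1. On it Hsp70c stood at 0.0252 ± 0.00445 (SD, n = 3) at 14 days and at 0.0927 ± 0.00311 at 21 days. The step from 7 to 14 days was -5.32 (log2) on this scale and -5.36 from the cycles of Hsp70c without any reference gene, against -4.64 with Sar1 and Pdi. The dip at 14 days and the higher level at 21 days were therefore seen on each of the 3 scales, which are not separate measurements. The first step was deeper on the deposited scale and without a reference gene than with Sar1 and Pdi. Within each day the deposited scale keeps the proportions of the deposited relative expression. How its steps between days were made is not stated in the sources used here.

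In axes of NO-treated embryos the level of Hsp70c was 1.67, 1.59 and 1.63 after 7 days of aging, on the same scale. It was 0.430, 0.446 and 0.399 after 14 days and 0.0468, 0.0572 and 0.0565 after 21 days. These groups did not overlap either, and here each later time was lower than the one before. The step from 7 to 14 days was -1.94 (log2), or 3.84-fold lower, with a pooled SD of 0.06, and it was -2.75 without a reference gene. The step from 14 to 21 days was -2.99 (log2), or 7.97-fold lower, with a pooled SD of 0.13. Over the whole course the NO-treated axes went down 30.6-fold (log2 difference -4.93), and by -5.62 on cycles alone and -4.33 relative to the other 17 target genes.

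The control and NO-treated axes therefore followed different courses. The control axes lost Hsp70c transcript in the first interval only and moved up in the second. The NO-treated axes went down in both intervals, with the larger log2 step in the second (-2.99 against -1.94). Without a reference gene these steps were nearly equal (-2.86 against -2.75). On the linear scale the larger drop of the NO-treated axes was in the first interval, with mean levels of 1.63, 0.425 and 0.0535. The difference between the courses was not tested, because the gene was selected on them.

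**Figure D2:**
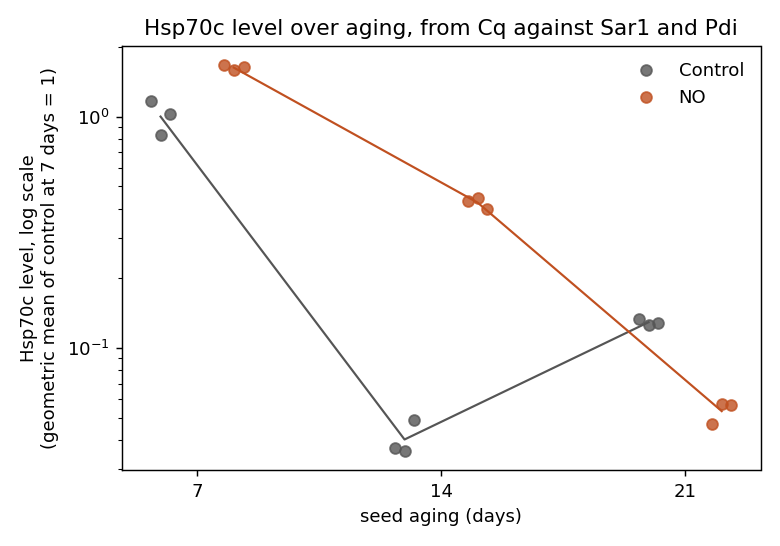
Level of Hsp70c in each sample by days of seed aging, on a log axis, from cycles against Sar1 and Pdi with the geometric mean of Control 7d set to 1; lines join the geometric means of control and of NO-treated axes. The control axes dip to 0.0358 to 0.0489 at 14 days, and the NO-treated axes descend at each step to 0.0468 to 0.0572 at 21 days.

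Ordered by mean level, the 6 groups ran NO 7d (1.63 ± 0.0395, SD, n = 3), Control 7d (1.01 ± 0.170), NO 14d (0.425 ± 0.0243), Control 21d (0.129 ± 0.00400), NO 21d (0.0535 ± 0.00581) and Control 14d (0.0406 ± 0.00721). Each of the first 4 groups lay above the next without overlap, by 1.61-fold to 3.29-fold between means. The 2 lowest groups, NO 21d and Control 14d, overlapped, with the lowest NO 21d sample at 0.0468 and the highest Control 14d sample at 0.0489, so their order did not exceed the spread between replicates. The order of the 6 means was the same with Sar1 alone, Pdi alone, no reference gene, centring on the other 17 target genes and an amplification factor of 1.9 per cycle. With centring, with no reference gene and with Pdi alone, all 3 samples of NO 21d lay above all of Control 14d, compared with 2 with Sar1 and Pdi together.

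The response to NO at each aging time was read from the deposited relative expression, a ratio to the reference genes in which the controls of each day average about 1. After 7 days of aging, the relative expression of Hsp70c was 1.17, 0.833 and 1.03 in the controls and 1.67, 1.59 and 1.63 with NO. All 3 NO samples lay above all 3 controls, and the means on the log2 scale differed by 0.70 (1.63-fold) with a pooled SD of 0.18. The controls were more scattered than the NO samples at this time, with an SD of 0.169 against 0.0402 on the ratio scale.

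After 14 days of aging the relative expression was 0.921, 0.894 and 1.22 in the controls and 10.5, 10.9 and 9.73 with NO. The groups were far apart, and the lowest NO sample was several times the highest control. The log2 difference was 3.37, or 10.4-fold, with a pooled SD of 0.18. The same 3 Control 14d samples, the lowest in level of the whole series, enter this response and both steps of the control course through 14 days, so these values are not separate observations.

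After 21 days of aging the direction was the opposite. The relative expression was 1.04, 0.971 and 0.994 in the controls and 0.365, 0.447 and 0.442 with NO, again without overlap. The log2 difference was -1.26, or 2.40-fold lower, with a pooled SD of 0.12. Centring on the other 17 target genes instead of the reference genes gave -0.78 at 21 days, with the direction kept. From 14 to 21 days the NO response itself differed by -4.64 and from 7 to 21 days by -1.97 on the log2 scale, and neither difference was tested.

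**Figure D3:**
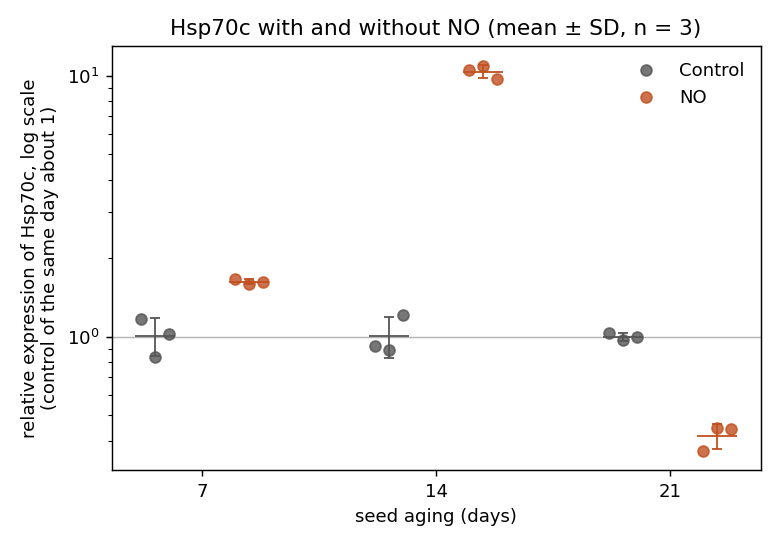
Deposited relative expression of Hsp70c in each control and NO sample by days of seed aging, on a log axis with the control of the same day at about 1; horizontal marks and bars are mean ± SD (n = 3). The NO samples sit above the controls at 7 days (1.59 to 1.67) and 14 days (9.73 to 10.9) and below them at 21 days (0.365 to 0.447).

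For Hsp70c the deposited ratio followed the deposited cycles closely, with a root mean square difference of 0.0128 on the log2 scale over the samples. Among the other chaperone genes that value was at least 0.219 for Cpn60a, Cpn60b and Hsp90, and 1.09 for Hsp70b. The deposited ratios of these genes thus depart from their cycles against Sar1 and Pdi, and the reason was not examined. The spread of Hsp70c within groups was 0.16 on the log2 scale of levels, near the median of 0.17 over the 18 target genes. The size of its differences was therefore not matched by a larger scatter between replicates. Some groups were tighter than others, from an SD of 0.04 (log2 level) in NO 7d and Control 21d to 0.25 in Control 7d and Control 14d.

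Among the 18 target genes the range of the 6 group means of log2 level was 5.34 for Hsp70c, a 40.5-fold span from Control 14d to NO 7d. It was followed by Tor, which encodes a growth-controlling kinase, with 3.72, and by Hsp70b with 2.94. The value of Hsp70b rests on cycles that its deposited ratios did not follow. The rank of Hsp70c was the same with Sar1 alone, Pdi alone, no reference gene and centring on the 18 target genes, with ranges of 5.10 to 6.26. In the deposited ratios, the NO response of Hsp70c ranked first in size of the 18 genes at 14 days, ahead of Pimt (-2.44, log2), which encodes an enzyme that repairs damaged aspartyl residues of proteins. At 7 days it ranked 3 after Tor (-1.71) and Raptor (-1.45), the partner of the Tor kinase. At 21 days it ranked 3 after Raptor (-1.92) and Tor (-1.53). The deposited ratios of these 2 genes also departed from their cycles, with a root mean square difference of 0.239 for Tor and 0.214 for Raptor (log2). From the cycles against Sar1 and Pdi, the response of Hsp70c was 0.70, 3.40 and -1.28 at 7, 14 and 21 days. It again ranked first in size at 14 days, but 5 at 7 days, where Hsp70b (0.84) and Cpn60b (-0.71) also exceeded it, and 4 at 21 days, where Hsp70b (-2.52) did. These ranks repeat what the gene was chosen for and are given as a description.

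Over the 6 group means, the pattern of Hsp20a, which encodes a small heat shock protein that holds unfolding proteins in a soluble state, was most like that of Hsp70c, with a Pearson correlation of 0.84. Hsp70b (0.59) and Cpn60b (0.51) came next, and Hsp90, which encodes a cytosolic chaperone of signaling proteins, was least like it (-0.72). These correlations are descriptions over 6 points that share the Sar1 and Pdi cycles of each sample. That of Hsp70b rests on cycles that its deposited ratios did not follow. Without a reference gene the values were 0.92 for Hsp20a, 0.75 for Hsp70b, 0.74 for Cpn60b and -0.36 for Hsp90. Hsp20b (0.85, against -0.13 with Sar1 and Pdi) and ClpB4 (0.76, against 0.47) then came ahead of Hsp70b. Centred on the 18 target genes, the values for Hsp20a, Hsp70b, Cpn60b and Hsp90 were 0.78, 0.42, 0.10 and -0.76. The likeness of Hsp20a thus held under each normalizer, while that of Cpn60b did not. Like Hsp70c, Hsp20a had a higher NO than control level at 14 days, at 1.01 ± 0.0457 (SD, n = 3) against 0.399 ± 0.0458, and a lower one at 21 days, at 0.198 ± 0.0353 against 0.281 ± 0.0364. Unlike Hsp70c, its control level was not lowest at 14 days. At 7 days the NO response of Hsp20a was -0.23 from the cycles (log2, adjusted p = 0.204 from limma), while that of Hsp70c was above 0. From 7 to 14 days in NO-treated axes Hsp20a differed by 0.24 (log2, adjusted p = 0.149 from limma), while Hsp70c went down.

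**Figure D4:**
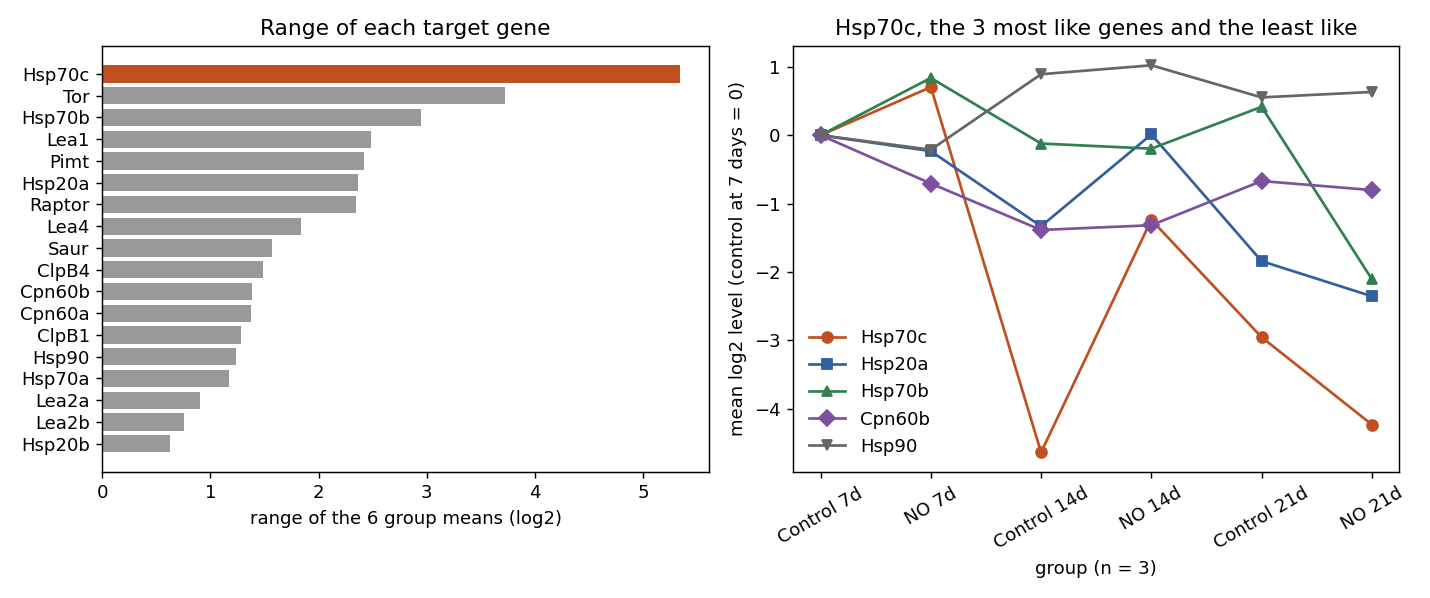
Left, range of the 6 group means of log2 level for each of the 18 target genes; right, mean log2 level by group (n = 3, Control 7d = 0) of Hsp70c, the 3 genes with the most similar pattern and the least similar one, all from cycles against Sar1 and Pdi. Hsp70c has a range of 5.34, and Hsp20a shares its higher level in NO 14d than in Control 14d.

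The 9 other chaperone genes were tested with limma over all 18 samples, with Benjamini-Hochberg adjustment over the 18 genes and a threshold of 0.05. Over the 17 genes other than Hsp70c, 29.4% passed for NO at 7 days (2 higher and 3 lower). At 14 days 41.2% passed (2 higher and 5 lower), and at 21 days 41.2% (3 higher and 4 lower). Of the 9 chaperone genes, 2 passed at 7 days (1 higher and 1 lower), 2 at 14 days (both higher) and 4 at 21 days (2 higher and 2 lower). As shares these were 22.2%, 22.2% and 44.4%. From the cycles against Sar1 and Pdi, 3 of the 9 passed at 7 days (2 higher and 1 lower), 2 at 14 days (both higher) and 4 at 21 days (1 higher and 3 lower), with 41.2%, 41.2% and 52.9% of the 17 genes passing. In the deposited ratios the median NO response of the 9 was 0.10, 0.14 and 0.0084 (log2) at 7, 14 and 21 days. It stood beside 0.10, -0.051 and -0.048 over the 17 genes and 0.70, 3.37 and -1.26 for Hsp70c. From the cycles the median of the 9 was -0.085, 0.13 and -0.080, beside -0.085, -0.12 and -0.13 over the 17 genes. The sign of the median of the 9 thus depended on the scale at 7 and 21 days. In the deposited ratios the count at 7 days was 1 without replicate 1 or 2 of Control 7d or replicate 1 of NO 7d. The count at 21 days in these ratios was 2 without replicate 2 of Control 21d or replicate 1 or 2 of NO 21d.

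Of the genes whose Arabidopsis match is mitochondrial, as for Hsp70c, ClpB4, a disaggregase, rose with NO at 7 days by 0.54 (log2, standard error 0.12, adjusted p = 0.000668 from limma), beside 0.70 for Hsp70c. Cpn60a, a chaperonin subunit, rose at 14 days by 0.65 (log2, standard error 0.11, adjusted p = 3.4e-05 from limma), when Hsp70c was higher by 3.37. Cpn60b, the other chaperonin gene, fell at 7 days by 0.37 (log2, adjusted p = 0.0288 from limma) in the deposited ratios and by 0.71 (adjusted p = 0.00022) from the cycles. The call on the deposited ratios no longer passed on leaving out replicate 1 of Control 7d (adjusted p = 0.12), replicate 2 of Control 7d (0.0908) or replicate 1 of NO 7d (0.179). At 21 days, when Hsp70c was lower with NO, none of these 3 genes had a response below 0 in the deposited ratios, although from the cycles Cpn60a (-0.021) and Cpn60b (-0.13) did, without passing the test. ClpB4 was higher at this time by 0.37 (log2, adjusted p = 0.0126 from limma), a call lost without replicate 2 of Control 21d (adjusted p = 0.0514) or of NO 21d (0.0736).

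Of the other Hsp70 genes, Hsp70a, whose Arabidopsis match is a divergent Hsp70, had NO responses of -0.088 (adjusted p = 0.467 from limma) at 7 days and 0.16 (adjusted p = 0.289) at 14 days. At 21 days it fell with NO by 0.75 (log2, standard error 0.12, adjusted p = 9.55e-06 from limma), the direction that Hsp70c also had. Hsp70b, whose match is a cytosolic Hsp70, had responses of 0.19, 0.11 and 0.0084 in the deposited ratios at the 3 times, none of which passed the test, but these ratios did not follow its cycles. From the cycles its response was 0.84 at 7 days (adjusted p = 3.6e-06 from limma), -0.075 at 14 days (adjusted p = 0.637) and -2.52 at 21 days (adjusted p = 3.7e-16), so that at 7 and 21 days it moved in the direction of Hsp70c. On that scale Hsp70b stood in NO 21d at 0.235 ± 0.0375 (SD, n = 3) of its Control 7d level, against 1.33 ± 0.0608 in Control 21d.

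Of the remaining chaperones, Hsp20a rose with NO at 14 days by 1.29 (log2, standard error 0.14, adjusted p = 3.3e-08 from limma) and fell at 21 days by 0.49 (log2, adjusted p = 0.00609 from limma), the latter lost without replicate 1 of NO 21d (adjusted p = 0.0561). Hsp90 rose at 21 days by 0.30 (log2, adjusted p = 0.0227 from limma), opposite to Hsp70c, and this call was lost without replicate 2 (adjusted p = 0.0844) or 3 (0.063) of Control 21d, without replicate 1 (0.0561) or 2 (0.0514) of NO 21d, and from the cycles against Sar1 and Pdi (0.643). ClpB1, the cytosolic disaggregase, had responses between -0.27 and 0.25, and Hsp20b, a second small heat shock protein, between -0.015 and 0.14, with none passing the test.

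**Figure D5:**
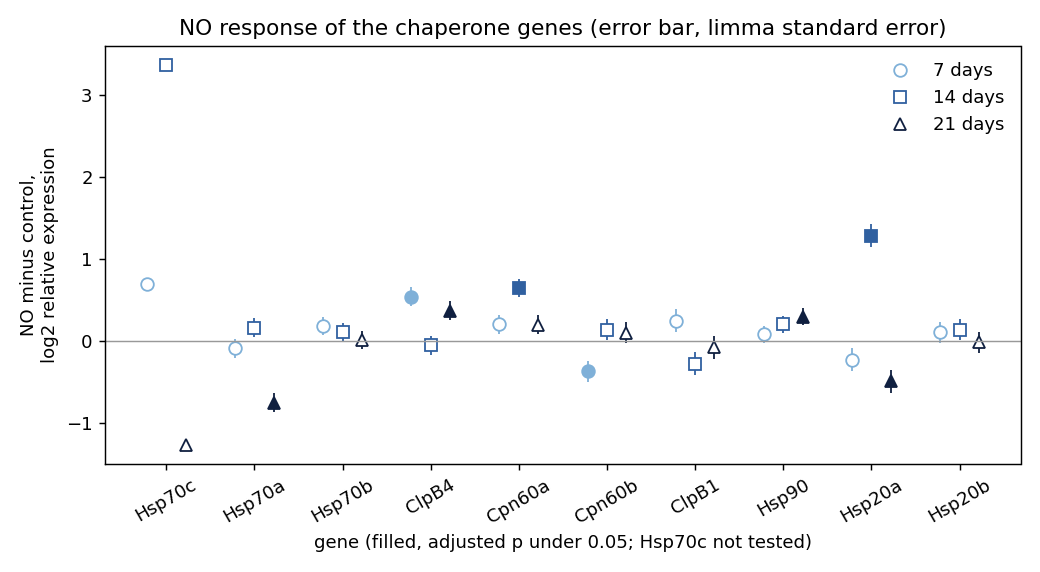
NO minus control difference in log2 relative expression of Hsp70c and the 9 other chaperone genes at 7, 14 and 21 days of aging; bars are limma standard errors, and filled symbols passed an adjusted p of 0.05 (Hsp70c was not tested). Hsp70c lies at 0.70, 3.37 and -1.26, and the other chaperone genes lie between -0.75 and 1.29 in these deposited ratios.

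The turn of the NO response between 14 and 21 days was tested for the other genes as a limma contrast of the 2 responses. Of the 17 genes 47.1% passed, 4 higher and 4 lower. Of the 9 chaperone genes 4 passed, and 3 of them moved down, as Hsp70c did by -4.64 without a test. The difference was -1.78 (log2, standard error 0.20, adjusted p = 6.4e-08 from limma) for Hsp20a and -0.91 (standard error 0.17, adjusted p = 4.9e-05 from limma) for Hsp70a. The 9 genes lay between -1.78 and 0.42, with a median of -0.098 beside -0.010 over the 17 genes. From the cycles 4 of the 9 passed as well (47.1% of the 17 genes), all of them down. These were Hsp70b, with -2.45 (adjusted p = 1.8e-12 from limma), Hsp20a, Hsp70a and Cpn60a, while ClpB4 did not pass (adjusted p = 0.053). In the deposited ratios the count was 2 without replicate 3 of Control 14d or replicate 1 of Control 21d.

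Over aging, from cycles against Sar1 and Pdi, most target genes passed the test between neighbouring times. In control axes 76.5% of the 17 genes passed from 7 to 14 days (7 higher and 6 lower). From 14 to 21 days 88.2% passed (6 higher and 9 lower). In NO-treated axes 64.7% (4 higher and 7 lower) and 94.1% (6 higher and 10 lower) passed. From 7 to 14 days in control axes, 3 of the 9 chaperone genes fell and 5 rose, with a median of 0.30 (log2) beside 0.039 over the 17 genes. The 3 that fell with Hsp70c were Cpn60b by 1.39, Hsp20a by 1.33 and Cpn60a by 1.28 on the log2 scale (adjusted p at most 8.0e-09 from limma), against 4.64 for Hsp70c. Hsp70a rose by 0.90 and Hsp90 by 0.89 (log2, adjusted p = 4.0e-07 and 3.8e-07 from limma), but without a reference gene neither passed (0.18 with adjusted p = 0.114 and 0.17 with adjusted p = 0.0618).

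From 14 to 21 days in control axes 3 of the 9 rose and 5 fell, with a median of -0.34, the same as over the 17 genes. Those that rose with Hsp70c, which was higher by 1.68, were Cpn60a by 1.37 (log2, adjusted p = 1.7e-09 from limma), Cpn60b by 0.72 (adjusted p = 9.25e-05) and Hsp70b by 0.54 (adjusted p = 0.000476). In control axes both chaperonin genes, like Hsp70c, were lowest at 14 days. At 21 days the mean log2 level of Cpn60b (-0.67) was still below that of 7 days, as for Hsp70c (-2.95), whereas that of Cpn60a (0.089) was not. ClpB4 fell in this interval by 1.25 (log2, adjusted p = 1.7e-09 from limma), against the direction of Hsp70c. With Pdi alone 5 of the 9 genes passed, and the call of Hsp20a (-0.51, adjusted p = 0.0024) was lost (adjusted p = 0.0516), and with Sar1 alone that of Hsp70b was lost (adjusted p = 0.0577).

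In NO-treated axes, 4 of the 9 chaperone genes fell and 3 rose from 7 to 14 days (median 0.017, beside -0.14 over the 17 genes). Among those that fell were Cpn60a by 0.62 and Cpn60b by 0.61 (log2, adjusted p = 0.000426 and 0.000616 from limma), beside -1.94 for Hsp70c, and both calls were lost with Pdi alone (adjusted p = 0.148 and 0.163). The third mitochondrial gene, ClpB4, was close to the threshold (-0.29, adjusted p = 0.0494). Its call was lost without any 1 sample of NO 14d or Control 21d, replicate 1 or 2 of Control 14d or NO 7d, or replicate 3 of Control 7d or NO 21d (adjusted p from 0.0549 to 0.143), and with Pdi alone its difference was 0.087. From 14 to 21 days 7 of the 9 fell and 2 rose, with a median of -0.83 beside -0.62 over the 17 genes. Hsp20a fell by 2.37 and Hsp70b by 1.91 (log2, adjusted p = 2.1e-14 and 1.2e-13 from limma), beside -2.99 for Hsp70c. The cycles of Hsp70b did not match its deposited ratio, with NO responses at 21 days of -2.52 and 0.0084 respectively. The 2 that rose were Cpn60a by 0.78 and Cpn60b by 0.51 (adjusted p = 1.8e-05 and 0.00222), so that in NO-treated axes the chaperonin genes and Hsp70c moved in opposite directions in this interval.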

How the data were processed

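Quantification cycles (Cq) of 18 target genes and the reference genes Sar1 and Pdi were deposited by the authors as 1 value per biological replicate, after RT-qPCR with SYBR Green in 3 technical repetitions. The deposited relative expression is a ratio that, by the authors' account, was normalized to both reference genes. For part of the genes it departs from the cycles against Sar1 and Pdi. The controls of each day average about 1 in it. A further deposited set of control ratios is set to about 1 at 7 days. The authors' own table of fold changes was not used. No per-sample column was left unmapped (0 columns). Levels over aging were computed here from Cq minus the mean of Sar1 and Pdi, with a factor of 2 per cycle, because the ratios hold no common scale over days.

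The NO response used log2 of the relative expression. Other genes were tested with limma 3.58.1 in R 4.3.3 on all 18 samples, with Benjamini-Hochberg adjustment over the 18 genes, after a check on simulated data. Percentages of genes passed count the 17 genes other than Hsp70c. Alternatives were single or no reference genes, centring on the target genes, a factor of 1.9 per cycle, linear values, 2-group tests, a replicate block and leaving out each replicate. Nothing in the labels ties replicate numbers across groups. As a criterion for pairing, the deviations of each same-numbered pair from the group means had to correlate above 0.1 over the 18 genes. This held only for Control 21d against Control 14d (0.78, 0.39 and 0.26). The p-values given for that step are nevertheless from the limma fit without pairing, and the replicate block was run as an alternative. The 3 replicates per group limit the precision, and no efficiency of amplification was given in the sources used here. Genes were named by a rule: Hsp70c, the reference genes, the 9 other chaperone genes, the 3 most and 1 least like genes and the 2 next in range. Raptor and Pimt were named after their values were seen. Hsp70c, the lists and the tests were chosen with earlier results of these data known. Primer sequences were read from the study's primer table.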

Additional observations from a re-analysis of the deposited data

Results flagged for a closer look

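The NO response of Hsp70c differed between aging times, with every NO sample above the controls at 7 and 14 days and every NO sample below them at 21 days. The log2 difference between the responses was -4.64 for 21 against 14 days and -1.97 for 21 against 7 days. Neither difference was tested, because the gene was chosen on these responses.

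The NO response also differed between 14 and 21 days by the limma contrast for Hsp20a (-1.78, log2), Hsp70a (-0.91), Cpn60a (-0.45, adjusted p = 0.0232) and ClpB4 (0.42, adjusted p = 0.0389). The call of Cpn60a was lost without replicate 2 (adjusted p = 0.058) or 3 (0.0539) of Control 14d, replicate 1 of Control 21d (0.0663) or replicate 3 of NO 21d (0.0635). The call of ClpB4 was lost without replicate 3 of Control 14d (adjusted p = 0.138), replicate 1 (0.0506), 2 (0.0936) or 3 (0.0599) of Control 21d, replicate 1 (0.0692), 2 (0.0593) or 3 (0.0548) of NO 14d or replicate 2 of NO 21d (0.123), and on the cycles (0.053).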

How the results depend on the processing

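Every difference given for Hsp70c kept its direction under each setting tried. With 3 replicates per group, leaving out 1 cannot move a difference by more than the pooled SD, so that limit is no check there. On leaving out 1 replicate the NO response lay between 0.57 and 0.81 (log2) at 7 days. It lay between 3.29 and 3.51 at 14 days and between -1.32 and -1.17 at 21 days. Under the other settings, values that moved by more than the pooled SD between replicates follow, all on the log2 scale. Without a reference gene the NO response at 7 days was 0.89, the control steps were -5.36 (7 to 14 days), 1.91 (14 to 21) and -3.46 (7 to 21), and the NO-treated steps were -2.75, -2.86 and -5.62. Centred on the other 17 target genes, the NO responses were 0.92, 3.68 and -0.78 at 7, 14 and 21 days, the control steps 1.93 (14 to 21) and -2.63 (7 to 21), and the NO-treated steps -1.80, -2.53 and -4.33. With a factor of 1.9 per cycle the NO response at 14 days was 3.15, the control steps -4.29 (7 to 14) and -2.73 (7 to 21), and the NO-treated steps -1.80, -2.77 and -4.57. With Sar1 alone the control steps were 1.49 (14 to 21) and -3.28 (7 to 21), and the NO-treated steps -2.32 (7 to 14) and -5.26 (7 to 21). With Pdi alone the NO response at 21 days was -1.39, the control steps 1.88 and -2.63, and the NO-treated steps -1.56 and -4.60 over the same intervals. The deposited 7-day-scaled control values gave -5.32, 1.89 and -3.43.

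Of the 9 other chaperone genes, 1 passed for NO at 7 days on linear values and by an equal-variance test on log2 values, which gave 2 at 21 days. In control axes 5 passed from 7 to 14 days without a reference gene and 5 from 14 to 21 days with Pdi alone. Single calls lost by the equal-variance test were Cpn60b at 7 days and Hsp20a and ClpB4 at 21 days, and Hsp20a at 21 days also missed the threshold in the methods' unadjusted test. Hsp90 at 21 days was lost on the compared groups only (adjusted p = 0.0819). Linear values lost Cpn60b at 7 days (0.0612), Hsp20a from 14 to 21 days in control axes (0.168) and Cpn60b in NO-treated axes (0.0577). ClpB4 from 7 to 14 days in NO-treated axes turned to 0.087 with Pdi alone and lost its call on centring (0.649) and with the replicate block (0.0704). Leaving out 1 replicate gave 1 to 2 genes for NO at 7 days, 2 to 4 at 21 days and 2 to 4 for the change of the response between 14 and 21 days. The alternatives for that change were chosen after seeing the data. For the NO comparisons and the other aging steps the samples share only a number, and same-numbered deviations over the 18 genes correlated from -0.33 to 0.49 for NO. For Control 21d against Control 14d the numbers met the criterion for pairing, and the block left the count at 8. With the replicate block the differences of Hsp70c were identical (3.37 for NO at 14 days). Each group holds every replicate number, so this was fixed by the design and is no check. The counts with the block were 2, 2 and 4 for NO, 4 for the change of the response, 8 and 8 in control axes and 6 and 9 in NO-treated axes.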
